A study of Mus musculus with 16 samples.

Results

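The genes described here are the AP-1 and early-response transcription factors of cultured mouse hepatocytes: the Fos family (Fos, Fosb, Fosl1, Fosl2), the Jun family (Jun, Junb, Jund), Atf3 and Egr1. They were chosen by symbol in the platform annotation, with earlier results of these data known. A probe was used where it rose above background on 2 or more arrays (detection p under 0.01). All 9 genes are on the array, with 11 probes among 24613. Of these, 9 probes, 1 for each gene, met that minimum, so all 9 genes were among the 7746 genes tested. The 2 other probes, ILMN_2768924 and ILMN_2718801, both for Fosl2, were above background on 0 of 16 arrays.

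The RNA came from primary hepatocytes of C57BL/6 mice aged 6 to 8 weeks, and was read on 16 Illumina bead arrays in 8 groups of 2. Every culture had been infected with an adenovirus. In 4 groups the virus is titled adenoviral GFP, which the design text of the series gives as shGFP, and these are called control cells. In the other 4 groups it carried shRNA HDAC4 & 5, against a pair of class IIa histone deacetylases, and these are called knockdown cells. Within each virus the groups received DMSO, the solvent, or forskolin for 2 h or 4 h. Forskolin is a plant compound that activates adenylyl cyclase and raises cAMP, as glucagon does in hepatocytes. Its dose, the number of mice and the share of cells infected are not given in the sources used here. The arrays of a group are named A and B as in the deposited table. Whether they came from separate cultures or mice is not given, and the p-values below rest on their spread alone, which may be a technical one.

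AP-1 is a dimer of basic leucine zipper proteins in which a Jun protein pairs with a Fos protein, with another Jun protein or with an ATF protein. Jun proteins can pair with each other, whereas Fos proteins bind DNA only with a partner. Most of these genes are immediate early genes: growth factors, stress or cAMP raise their transcription within minutes through factors already present, among them CREB and serum response factor, and the transcripts are short-lived. In liver they are known from regeneration, injury and the cAMP response of fasting.

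CREB binds the cAMP response element, which lies in the promoters of Fos and of other cAMP-responsive genes. For 7 members, not Fosl1 and Egr1, the 250 bases before the annotated start of the gene were therefore read from RefSeq (GRCm38.p6). They are shown for the 4 members with a match to TGACG, the core of the cAMP response element, and for Fosl2, which had none. The windows, on the strand of the gene, are chr12:85473640-85473889 (plus strand) for Fos, chr7:19310046-19310295 (minus) for Fosb, chr8:84978749-84978998 (minus) for Junb, chr1:191183334-191183583 (minus) for Atf3 and chr5:32136222-32136471 (plus) for Fosl2. Capitals mark TGACG on either strand and, in Fos, TATAAA.
Fos: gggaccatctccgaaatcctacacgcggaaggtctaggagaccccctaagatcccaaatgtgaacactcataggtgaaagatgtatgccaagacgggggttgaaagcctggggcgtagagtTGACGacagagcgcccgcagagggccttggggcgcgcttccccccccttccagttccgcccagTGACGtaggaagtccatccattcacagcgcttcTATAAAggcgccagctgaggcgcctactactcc
Fosb: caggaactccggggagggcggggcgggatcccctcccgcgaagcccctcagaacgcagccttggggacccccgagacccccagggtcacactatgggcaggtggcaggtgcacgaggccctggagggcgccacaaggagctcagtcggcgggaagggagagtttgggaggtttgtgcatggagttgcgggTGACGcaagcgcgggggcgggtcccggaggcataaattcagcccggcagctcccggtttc
Junb: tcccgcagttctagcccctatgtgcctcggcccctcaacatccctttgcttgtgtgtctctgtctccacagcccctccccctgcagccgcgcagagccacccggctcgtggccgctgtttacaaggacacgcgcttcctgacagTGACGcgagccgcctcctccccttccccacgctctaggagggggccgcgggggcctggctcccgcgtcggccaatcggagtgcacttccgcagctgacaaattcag
Atf3: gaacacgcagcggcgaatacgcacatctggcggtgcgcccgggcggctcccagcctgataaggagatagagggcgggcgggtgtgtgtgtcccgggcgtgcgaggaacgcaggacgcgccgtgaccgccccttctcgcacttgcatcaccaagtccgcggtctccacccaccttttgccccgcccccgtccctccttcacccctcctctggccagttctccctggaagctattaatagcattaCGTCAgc
Fosl2: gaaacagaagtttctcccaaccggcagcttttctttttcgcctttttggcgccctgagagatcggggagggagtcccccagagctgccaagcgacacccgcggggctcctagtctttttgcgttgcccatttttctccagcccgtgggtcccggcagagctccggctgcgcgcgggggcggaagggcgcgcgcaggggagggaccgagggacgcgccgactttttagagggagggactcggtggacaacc
TGACG stood 129 to 125 and again 66 to 62 bases before the start of Fos, 60 to 56 bases before that of Fosb and 106 to 102 bases before that of Junb. In Atf3 it lay on the opposite strand, 7 to 3 bases before the start. TATAAA was found in Fos alone of the 7, 33 to 28 bases before the start. Jun, Jund and Fosl2 had no match to either motif in this window. The full palindrome TGACGTCA, which contains TGACG and was counted apart from it, was in none of the 7, nor were the AP-1 site TGAGTCA or the Egr site GCGTGGGCG. Of 32851 RefSeq promoters of the same length, searched on both strands, 17.8% held TGACG, 1.55% TGACGTCA, 4.46% TGAGTCA, 0.536% GCGTGGGCG and 12.4% TATAAA. A match describes these letters and is no evidence of binding.

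The knockdown could be read in the arrays. Hdac4 lay between 7.40 and 8.66 (normalized log2 signal) on the 8 control arrays and between 5.74 and 6.99 on the 8 knockdown arrays, and Hdac5 between 9.02 and 10.35 against 5.72 and 6.73. Each gene was below background on several knockdown arrays, so these ranges are no measure of the size of the knockdown. Array medians of the deposited intensities ran from 103.2 to 117, and 34.4% to 41.0% of probes were above background. All 16 arrays correlated best with the other array of their own group. Of 8 hepatocyte markers, Apoa1, Ttr, Hnf4a and Serpina1a were above background on all 16 arrays, Cyp3a11 on 2, and Alb, Tat and Fgb on 0. The summed linear signal of the 5 hepatocyte markers tested was 12398 to 23849 on control arrays and 3032 to 6562 on knockdown arrays.

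**Figure D1:**
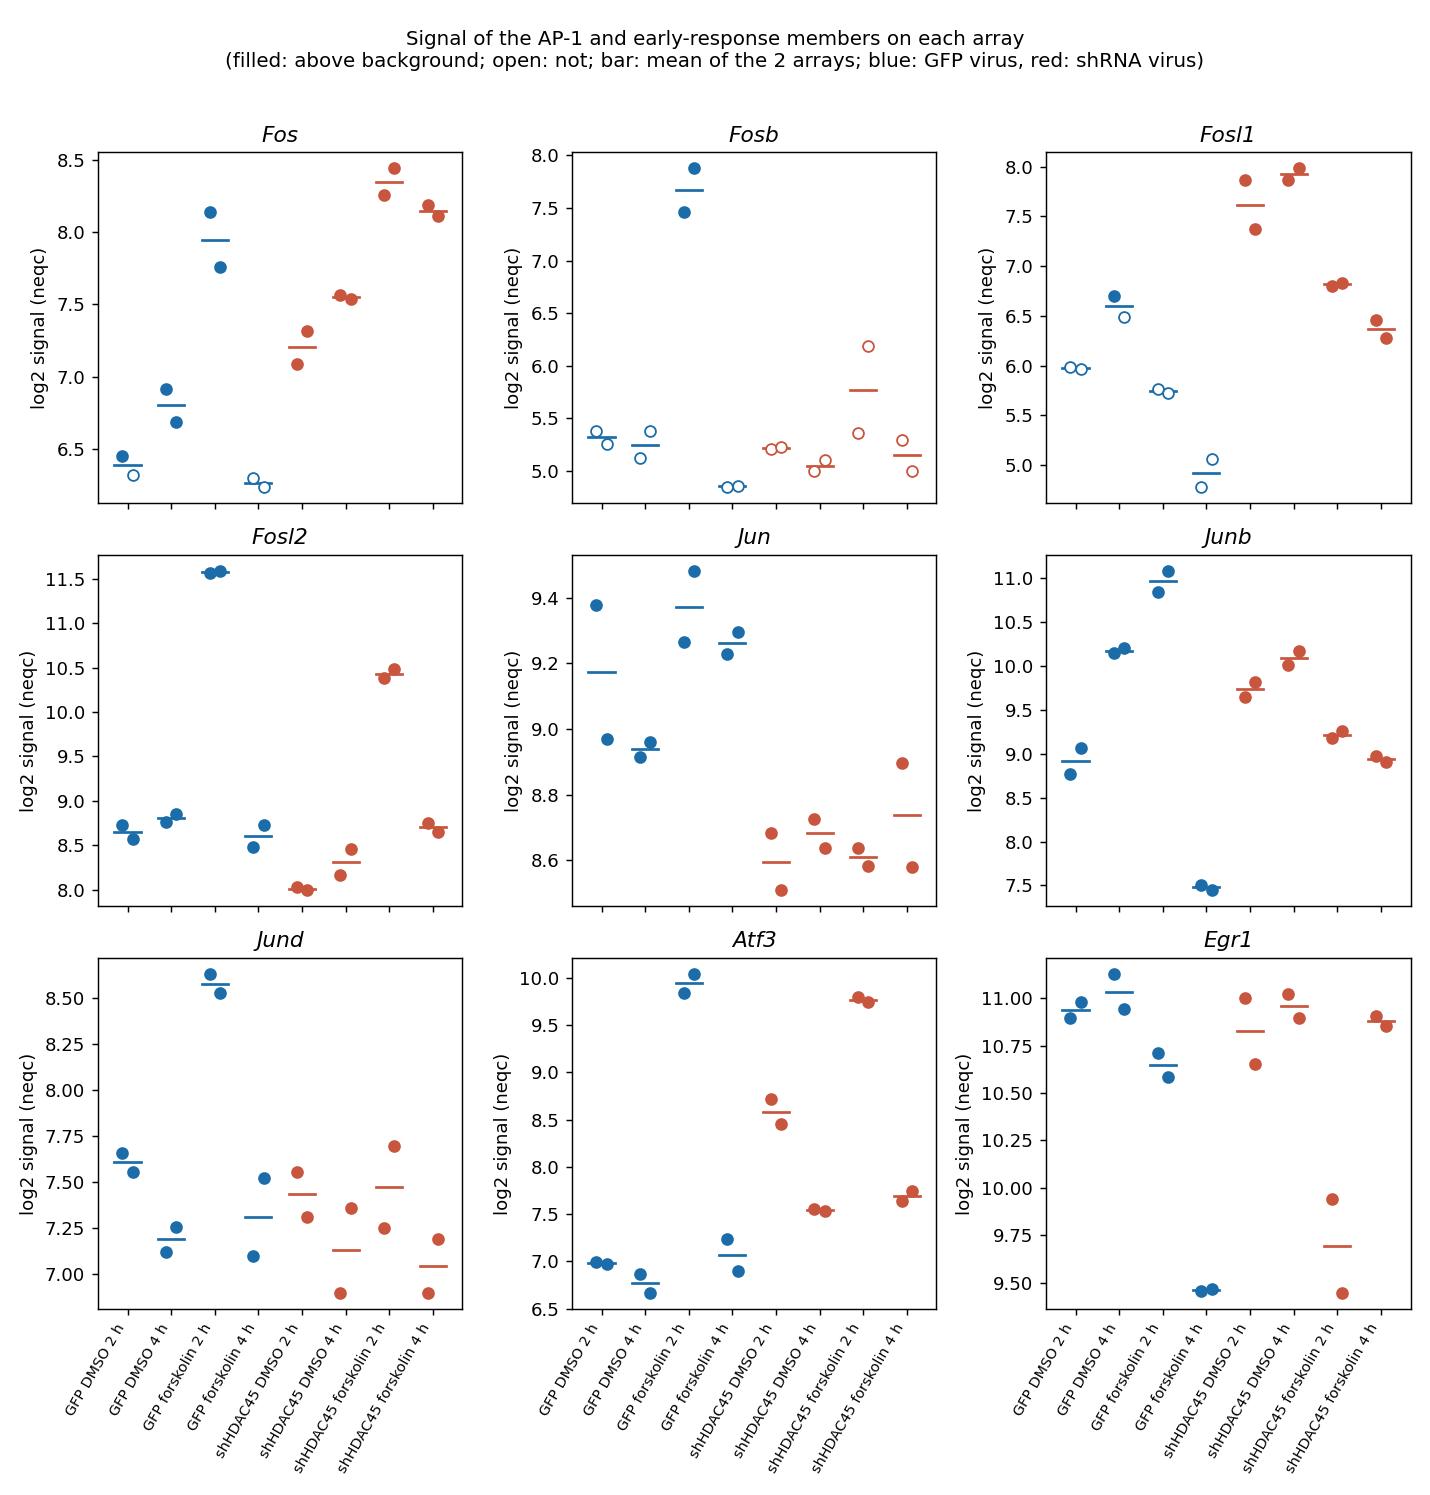
Normalized log2 signal (vertical axis, a separate scale for each gene) of the 9 members on each of the 16 arrays, by group (horizontal axis). Points are arrays, bars are means of 2 arrays, blue is the GFP virus and red the shRNA virus, and open points are not above background. Fosb was above background in 1 group, control cells after 2 h of forskolin, and Junb spanned the widest range within control forskolin arrays, from 11.08 at 2 h to 7.45 at 4 h.

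In control cells, 2 h of forskolin raised 6 of the 9 members, Fos, Fosb, Fosl2, Junb, Jund and Atf3, and the other 3 did not pass. Fosb met the detection minimum only through that group, so it had to differ there, and without it 5 of 8 members rose. Of all 7746 genes, 21.3% passed the test in either direction and 10.6% rose. Rises made up 49.5% of all calls in that comparison, and 13.9% when arrays were scaled to a common median in place of quantile normalization; the 6 members rose under both. The median log2 difference was 1.56 over the members, 1.39 with Fosb at its bound and Fosl1, below background in both groups, left out, and -0.01 over all genes. At 4 h the pattern was another one. There, 4 of 9 members passed, Fos, Fosl1, Junb and Egr1, and all 4 were lower, where 32.0% of all genes passed and 17.7% fell. At 4 h rises made up 44.8% of all calls, and 30.7% under median scaling. The median over the members, -0.40, is the fitted value of Fosb, which was below background in both groups; without Fosb and with Fos and Fosl1 at their bounds it was -0.15. These are the results of 1 limma model of the 8 group means, with p-values adjusted over all 7746 genes in each comparison (Benjamini-Hochberg) and a threshold of 0.05. Differences are log2 values with the standard error of the fit.

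In knockdown cells, 2 h of forskolin raised Fos, Fosl2 and Atf3 and lowered Fosl1, Junb and Egr1, so that 6 of 9 members passed, against 4.80% of all genes. The count was 3 of 9 when the fit held the compared arrays alone, where Fosl1, Junb and Egr1 no longer passed. At 4 h, Fos and Fosl2 were higher and Fosl1 and Junb lower, 4 of 9 where 35.3% of all genes passed. The response to forskolin differed between the viruses, by the interaction term of the same model, for Fosb, Junb, Atf3 and Egr1 at 2 h (4 of 9, against 5.96% of all genes). It differed for Fos, Junb and Egr1 at 4 h (3 of 9, against 8.57%). Of the 4 at 2 h, Fosb met the detection minimum only through control cells after 2 h of forskolin. Its call is therefore no independent evidence. The term of Fosl2 at 4 h, 0.59, missed the threshold (adjusted p = 0.0505) and passed under 7 of 25 alternatives, and that of Egr1 at 2 h was lost under 15 of 25. RNA was read from whole cultures, so fewer cells of a type and less RNA per cell cannot be told apart. The comparisons of forskolin, of knockdown and of time all draw on the same 16 arrays.

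Some cell type markers moved with forskolin and with time as well. In control cells the summed linear signal of the 4 macrophage markers tested was 8205 to 8250 under DMSO at 2 h, 3926 to 4181 after 2 h of forskolin, 3470 to 3725 under DMSO at 4 h and 4298 to 4534 after 4 h of forskolin. That of the 4 cholangiocyte markers was 5862 to 6038, 3923 to 3954, 7323 to 7703 and 4211 to 4557 in the same order. The hepatocyte sum was 12398 to 14848, 17596 to 20355, 19149 to 21014 and 18801 to 23849. The endothelial sum was 2149 to 2158, 2379 to 2401, 1948 to 2093 and 2095 to 2182. The stellate and fibroblast sum stayed between 42379 and 47201 on all control arrays. In knockdown cells the macrophage sum was 4111 to 4198 and 4148 to 4164 at 2 h and 7679 to 8209 and 9804 to 10910 at 4 h, without and with forskolin, and the cholangiocyte sum was 7921 to 9183, 9177 to 9503, 3927 to 4624 and 2797 to 2882. In the same order and cells the hepatocyte sum was 5321 to 5800, 6206 to 6562, 3032 to 3423 and 3765 to 3840. The endothelial sum was 2810 to 2863, 2951 to 3076, 2435 to 2508 and 3484 to 3500. The stellate and fibroblast sum lay between 37041 and 45638 on all knockdown arrays. The part of these markers in the forskolin and time values of the members was not tested.

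**Figure D2:**
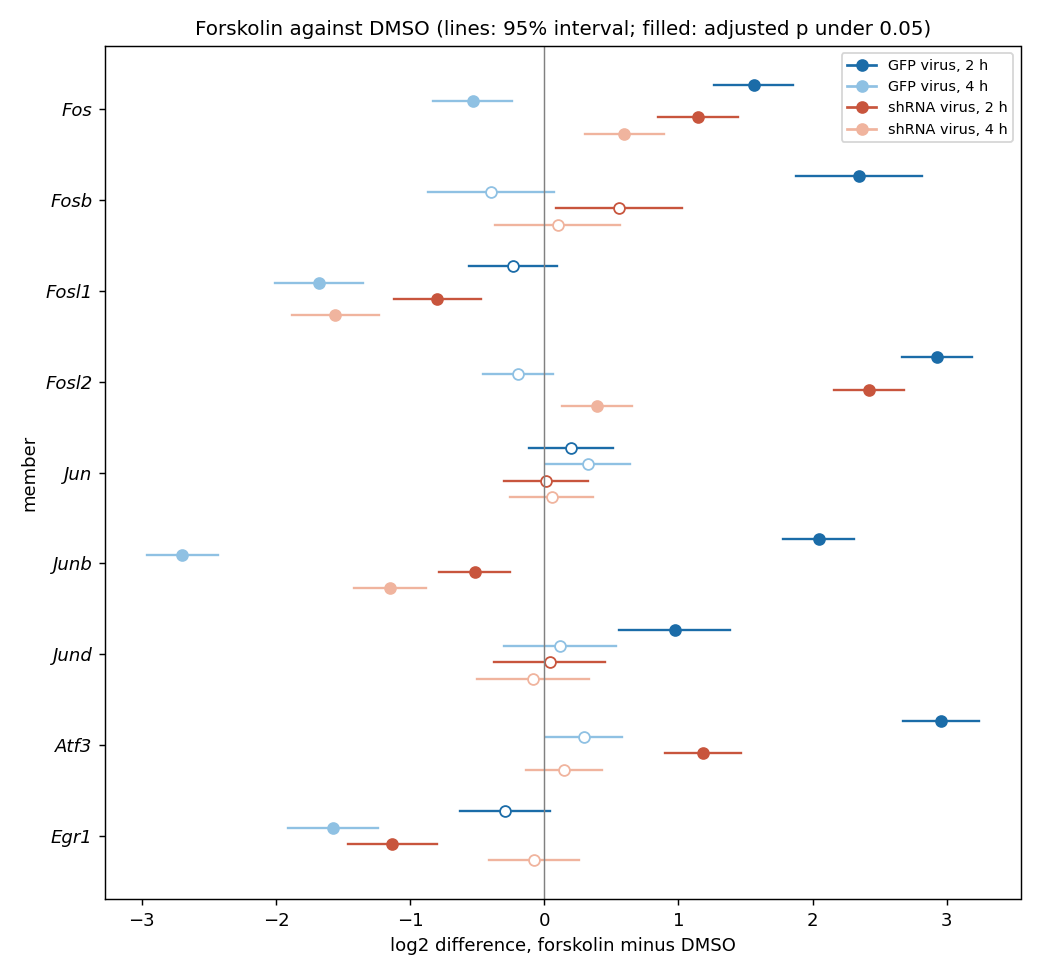
Log2 difference of forskolin from DMSO (horizontal axis) for each member (vertical axis) in GFP and shRNA cells at 2 h and 4 h. Points are fitted differences over 2 arrays per group, lines are 95% intervals and filled points passed the test. Fosl2 and Atf3 stand at 2.93 and 2.95 after 2 h in GFP cells, Junb goes from 2.05 at 2 h to -2.70 at 4 h, and the 4 points of Jun are all open. Where a gene is below background in a group (Fosb, Fosl1 and, after 4 h of forskolin in GFP cells, Fos), the fitted difference is no measure of the fold.

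Fos, the founding Fos protein, was dim in control cells under DMSO. It read 6.45 and 6.32 at 2 h, with 1 of the 2 arrays above background, and 6.92 and 6.69 at 4 h. With forskolin it read 8.14 and 7.76 at 2 h, then 6.30 and 6.24 at 4 h, below background on both arrays. The 2 h forskolin arrays lay above every other control array and the 4 h forskolin arrays below them all. The rise at 2 h was 1.56 (SE 0.14, adjusted p = 2.8e-06). At 4 h Fos was at least 1.23-fold lower than under DMSO (adjusted p = 0.0094). That last call was lost without background correction (adjusted p = 0.063), without DMSO array A (0.088), without forskolin array B (0.053) and against the 2 h DMSO arrays (0.53).

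In knockdown cells Fos was higher, and its 4 h forskolin arrays stayed close to those at 2 h. It read 7.09 and 7.32 under DMSO at 2 h, 7.57 and 7.54 under DMSO at 4 h, 8.26 and 8.44 after 2 h of forskolin, and 8.18 and 8.11 after 4 h. Both forskolin groups lay above both DMSO groups. The forskolin difference was 1.15 at 2 h (SE 0.14, adjusted p = 0.00016) and 0.60 at 4 h (SE 0.14, adjusted p = 0.0046). From 2 h to 4 h of forskolin, Fos changed by -0.20 in knockdown cells (95% interval -0.50 to 0.10, adjusted p = 0.26) and fell at least 2.73-fold in control cells. The fitted forskolin response at 4 h was larger by 1.13 in knockdown than in control cells (SE 0.19, adjusted p = 0.0028), and at 2 h the difference of -0.41 did not pass (adjusted p = 0.26). Fos was below background in control cells after 4 h of forskolin, so the 1.13 is no measure of a fold.

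Fosb, a close relative of Fos whose spliced form ΔFosB is stable in brain, was above background on 2 of 16 arrays, both from control cells after 2 h of forskolin, at 7.46 and 7.88. On the other 14 arrays its signal lay between 4.85 and 6.18. The highest of those 14 was knockdown array B after 2 h of forskolin, at 6.18, with array A of that group at 5.36. Since the detection minimum was met through that group alone, its tests against it are no independent evidence. In control cells Fosb was at least 2.33-fold higher after 2 h of forskolin than under DMSO (adjusted p = 4.7e-06), and at least 2.24-fold lower at 4 h than at 2 h. After 2 h of forskolin it was at least 2.27-fold lower in knockdown than in control cells (adjusted p = 1.2e-05). The fitted interaction with the virus was -1.79 (SE 0.31, adjusted p = 0.0034). In knockdown cells the fitted forskolin difference at 2 h was 0.55 (adjusted p = 0.20), and it passed without array A (0.96, adjusted p = 0.012) and against the 4 h DMSO arrays (0.73, adjusted p = 0.032), with both groups below background.

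Fosl1, or Fra-1, a Fos protein without a transactivation domain and itself an AP-1 target in many cells, behaved unlike Fos. It was below background on 7 of the 8 control arrays, the exception being DMSO array A at 4 h (6.70, with 6.49 on array B). Control signals were 5.99 and 5.96 under DMSO at 2 h, 5.76 and 5.72 after 2 h of forskolin, and 4.78 and 5.06 after 4 h. All 8 knockdown arrays were above background. They read 7.86 and 7.37 under DMSO at 2 h, 7.86 and 7.98 at 4 h, 6.80 and 6.83 after 2 h of forskolin, and 6.46 and 6.28 after 4 h. In knockdown cells each forskolin group lay below both DMSO groups.

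Forskolin lowered Fosl1 in knockdown cells, by a log2 difference of -0.80 at 2 h (SE 0.15, adjusted p = 0.0069) and of -1.56 at 4 h (SE 0.15, adjusted p = 6.8e-06). The 2 h call was lost without DMSO array A (-0.55, adjusted p = 0.077), without forskolin array A (adjusted p = 0.058) and when the fit held the compared arrays alone (0.094). In control cells Fosl1 was at least 1.07-fold lower at 4 h (adjusted p = 2.8e-06), with 1 DMSO array above background. Both 2 h control groups were below background, so their fitted difference of -0.23 (adjusted p = 0.31) has no fold. Against the 4 h DMSO arrays that difference was -0.85 (adjusted p = 0.0017).

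Fosl2, or Fra-2, the other Fos protein without a transactivation domain, rose steeply at 2 h in both viruses. Control arrays read 8.73 and 8.57 under DMSO at 2 h, 8.76 and 8.85 at 4 h, 11.57 and 11.58 after 2 h of forskolin, and 8.48 and 8.73 after 4 h. Knockdown arrays read 8.03 and 7.99, then 8.16 and 8.46 under DMSO, 10.38 and 10.48 after 2 h of forskolin, and 8.75 and 8.65 after 4 h. The 4 arrays of 2 h forskolin stood above the other 12, and those of the control cells above those of the knockdown cells.

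The forskolin difference of Fosl2 at 2 h was 2.93 in control cells (7.62-fold, SE 0.12, adjusted p = 1.4e-09), rank 20 from the top of 7746 genes. In knockdown cells it was 2.42 (5.36-fold, SE 0.12, adjusted p = 4.7e-08), rank 9. The difference between the viruses, -0.51, did not pass (95% interval -0.88 to -0.14, adjusted p = 0.11). By 4 h Fosl2 had fallen 7.84-fold from its 2 h forskolin level in control cells and 3.32-fold in knockdown cells. What was left over DMSO was -0.20 in control cells (adjusted p = 0.24) and 0.39 in knockdown cells (SE 0.12, adjusted p = 0.023). The second call was lost without DMSO array A (0.24, adjusted p = 0.21), forskolin array A (0.12) or B (0.051), and when the fit held the compared arrays alone (0.065).

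Jun, the partner of Fos in the classical AP-1 dimer, did not pass the test for forskolin in any of the 4 comparisons. The 8 control arrays lay between 8.91 and 9.48. Its forskolin differences were 0.20 (95% interval -0.11 to 0.51) at 2 h and 0.33 (0.02 to 0.64) at 4 h in control cells, and 0.01 (-0.30 to 0.32) and 0.06 (-0.25 to 0.37) in knockdown cells. On the 8 knockdown arrays Jun lay between 8.51 and 8.90, below every control array. Its span over the 8 group means, 0.78, was the narrowest of the 9 members.

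Junb, an early-response Jun protein with weaker transactivation than Jun, changed direction between the times. In control cells it read 8.77 and 9.07 under DMSO at 2 h and 10.15 and 10.20 at 4 h, so that it rose under the solvent alone by 1.26 (SE 0.12, adjusted p = 1.8e-05), rank 12 from the top of all genes. With forskolin it read 10.85 and 11.08 at 2 h and 7.51 and 7.45 at 4 h. These forskolin groups held the highest and the lowest values of all 16 arrays. The forskolin difference was 2.05 at 2 h (4.13-fold, SE 0.12, adjusted p = 6.7e-08) and -2.70 at 4 h (6.49-fold lower, SE 0.12, adjusted p = 5.0e-09). The second was rank 10 from the bottom of all genes.

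The change of the DMSO arrays enters both values of Junb. Against the DMSO arrays of the other time, the forskolin difference was 0.79 at 2 h (adjusted p = 0.00066) and -1.44 at 4 h (adjusted p = 1.3e-06). Without reference to DMSO, Junb fell 11.2-fold between 2 h and 4 h of forskolin (-3.49, SE 0.12, adjusted p = 1.3e-09), rank 2 from the bottom. Its interaction of forskolin with time, -4.74 (SE 0.17), was the lowest of all 7746 genes. By that interaction 8 of the 9 members, all but Jun, had a lower response at 4 h than at 2 h in control cells, where 26.6% of all genes passed. The call of Jund (adjusted p = 0.035) was lost under 9 of 25 alternatives, among them median scaling (adjusted p = 0.11), and the values of Fos, Fosb and Fosl1 involve groups below background. Fosb met the detection minimum only through the 2 h forskolin group, so its call is no independent evidence. In knockdown cells Fosl1, Fosl2, Junb and Atf3 had a lower response at 4 h and Egr1 went the other way, 5 of 9 where 19.8% passed.

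Knockdown cells showed no such rise of Junb. They read 9.65 and 9.82 under DMSO at 2 h, 10.01 and 10.17 at 4 h, 9.18 and 9.26 after 2 h of forskolin, and 8.97 and 8.91 after 4 h. Both forskolin groups lay below both DMSO groups. The difference was -0.52 at 2 h (SE 0.12, adjusted p = 0.028) and -1.15 at 4 h (SE 0.12, adjusted p = 1.5e-05). The 2 h call did not hold when any 1 of the 4 arrays compared was left out (adjusted p = 0.058 to 0.20), under median scaling (0.080) or when the fit held the compared arrays alone (0.10). The response differed from that of control cells by -2.56 at 2 h (SE 0.17, adjusted p = 1.7e-06) and by 1.55 at 4 h (SE 0.17, adjusted p = 0.00011). Both terms include the DMSO change of Junb over time, 1.26 in control cells and 0.35 in knockdown cells, where it did not pass. Against the DMSO arrays of the other time, its forskolin difference at 2 h was 0.79 in control and -0.87 in knockdown cells. At 4 h it was -1.44 and -0.80. The terms between the viruses were not fitted on those arrays.

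Jund, the Jun protein that most cells express without stimulation, rose in 1 group. Control arrays read 8.63 and 8.52 after 2 h of forskolin, against 7.66 and 7.55 under DMSO, 7.12 and 7.26 under DMSO at 4 h and 7.10 and 7.52 after 4 h of forskolin. The 8 knockdown arrays lay between 6.90 and 7.69. Only the 2 h forskolin arrays of the control cells stood clear of the other 14. The difference was 0.97 (SE 0.19, adjusted p = 0.0030) in control cells and 0.04 in knockdown cells (95% interval -0.38 to 0.46). The test of that difference between viruses gave -0.93 (SE 0.27) with an adjusted p of 0.065, and passed under 5 of 25 alternatives.

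Atf3, a stress-induced member of the ATF/CREB family that pairs with Jun proteins and often represses, rose at 2 h in both viruses. Control arrays read 6.995 and 6.98 under DMSO at 2 h, 6.87 and 6.67 at 4 h, 9.84 and 10.04 after 2 h of forskolin, and 7.24 and 6.90 after 4 h. Knockdown arrays read 8.71 and 8.46 under DMSO at 2 h, 7.56 and 7.54 at 4 h, 9.79 and 9.74 after 2 h of forskolin, and 7.64 and 7.74 after 4 h. After 2 h of forskolin the viruses ended close together, from different starting levels.

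The rise of Atf3 at 2 h was 2.95 in control cells (7.75-fold, SE 0.13, adjusted p = 3.1e-09), rank 19 from the top, and 1.18 in knockdown cells (2.27-fold, SE 0.13, adjusted p = 8.5e-05). The response was smaller in knockdown cells, by an interaction of -1.77 (SE 0.19, adjusted p = 8.6e-05). At 4 h neither passed, with 0.30 (adjusted p = 0.10) and 0.15 (adjusted p = 0.41). Under DMSO in knockdown cells Atf3 fell from 2 h to 4 h by 1.04 (SE 0.13, adjusted p = 0.00028). Against the 2 h DMSO arrays, the 4 h forskolin difference in knockdown cells was therefore -0.89 (adjusted p = 0.00018), the reverse of the value against its own time. Against the 4 h DMSO arrays, the 2 h rise was 2.22 in knockdown cells and 3.17 in control cells. The interaction was not fitted on those arrays.

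Egr1, a zinc finger factor outside AP-1 that serum response factor induces, did not rise with forskolin in any comparison. Control arrays read 10.89 and 10.98 under DMSO at 2 h, 11.13 and 10.94 at 4 h, 10.71 and 10.58 after 2 h of forskolin, and 9.45 and 9.47 after 4 h. Knockdown arrays read 10.998 and 10.65 under DMSO at 2 h, 11.02 and 10.90 at 4 h, 9.94 and 9.45 after 2 h of forskolin, and 10.91 and 10.85 after 4 h. The low group was thus the 4 h forskolin group in control cells and the 2 h forskolin group in knockdown cells.

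In control cells Egr1 differed by -0.29 at 2 h (95% interval -0.63 to 0.04, adjusted p = 0.21) and by -1.57 at 4 h (2.98-fold lower, SE 0.15, adjusted p = 6.2e-06). Under median scaling the 2 h difference passed, at -0.57 (adjusted p = 0.012). In knockdown cells it differed by -1.13 at 2 h (2.19-fold lower, SE 0.15, adjusted p = 0.00056) and by -0.08 at 4 h (95% interval -0.41 to 0.26). The fit to the compared arrays alone left the 2 h value in knockdown cells at an adjusted p of 0.055. The test of the difference between the viruses gave -0.84 at 2 h (SE 0.22, adjusted p = 0.041), a call lost under 15 of 25 alternatives, and 1.49 at 4 h (SE 0.22, adjusted p = 0.00096), which was kept under all 25.

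Read along time, 8 of the 9 members, all but Jun, were lower after 4 h than after 2 h of forskolin in control cells, where 38.1% of all genes passed and 19.1% fell. Of these 8, Fosl1 was below background in both groups, so its fitted -0.83 has no fold, and Fosb was above background only at 2 h. Fosb met the detection minimum through that 2 h group alone, so its fall is no independent evidence. Rises made up 49.97% of all calls in that comparison, and 63.8% under median scaling. The falls of Junb, Fosl2 and Atf3, measured in both groups, stood at ranks 2, 5 and 6 from the bottom of all genes. In knockdown cells Fosb, Fosl1, Fosl2 and Atf3 were lower and Egr1 higher at 4 h, 5 of 9 where 41.8% of all genes passed. Under DMSO alone, Fosl1 and Junb of the control cells were higher at 4 h than at 2 h (2 of 9, against 11.7% of all genes). In knockdown cells Atf3 fell under DMSO (1 of 9, against 8.64%). The rise of Fosl1, at least 1.11-fold (adjusted p = 0.017), did not hold without DMSO 2 h array A or B or DMSO 4 h array A (adjusted p = 0.078 to 0.13). The fall of Fosb in knockdown cells (adjusted p = 0.034, both groups below background) was lost without 2 h array B (0.39) or 4 h array B (0.20). That of Fosl1 (adjusted p = 0.028) was lost without either 2 h array or without 4 h array B (0.083 to 0.16).

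Knockdown itself moved the members in a way that depended on the condition. Under DMSO at 2 h, Fos, Fosl1, Junb and Atf3 were higher and Fosl2 and Jun lower in knockdown cells, 6 of 9 where 50.04% of all genes passed. Under DMSO at 4 h, Fos, Fosl1 and Atf3 were higher and Fosl2 lower, 4 of 9 where 52.7% passed. After 2 h of forskolin, Fos and Fosl1 were higher and Fosb, Fosl2, Jun, Junb, Jund and Egr1 lower, 8 of 9 where 50.1% passed. Of these 8, Fosb met the detection minimum only through the control group compared, so its call is no independent evidence. After 4 h of forskolin, Fos, Fosl1, Junb, Atf3 and Egr1 were higher and Jun lower, 6 of 9 where 59.1% passed. Fosl1 met that minimum only through knockdown cells, so its calls in all 4 comparisons are no independent evidence either. With the background so high, the count of members in these comparisons is not particular to them, apart from what each gene's values show.

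**Figure D3:**
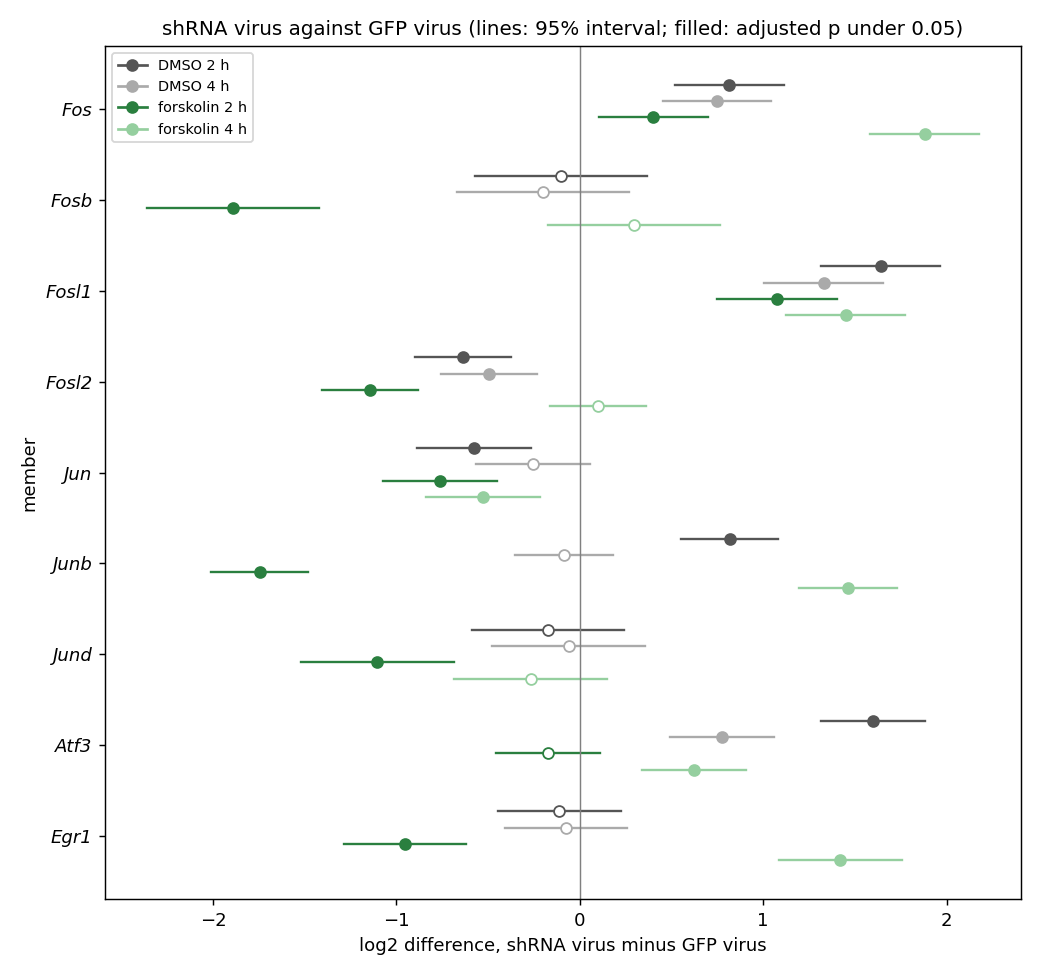
Log2 difference of shRNA from GFP virus (horizontal axis) for each member (vertical axis) in the 4 conditions. Points are fitted differences over 2 arrays per group, lines are 95% intervals and filled points passed the test. Fos and Fosl1 lie to the right of 0 in all 4 conditions, while Junb lies at -1.75 after 2 h of forskolin and at 1.46 after 4 h. GFP cells were below background for Fosl1 in 3 of the 4 conditions, and both viruses for Fosb in all but forskolin 2 h.

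Fosl1 was higher in knockdown cells in all 4 conditions, at least 2.25-fold under DMSO at 2 h (adjusted p = 1.7e-06) and by 1.33 at 4 h (SE 0.15, adjusted p = 8.8e-06). After 2 h of forskolin the bound was at least 1.06-fold, and after 4 h, with an adjusted p of 3.4e-06, no bound above 1 could be given. Fos was higher by 0.82 and 0.75 under DMSO at 2 h and 4 h (SE 0.14 each), by 0.40 after 2 h of forskolin and at least 3.13-fold after 4 h. The 2 h forskolin value of Fos lost its call without control array B (0.21, adjusted p = 0.27) or knockdown array B (0.31, adjusted p = 0.16), with only the compared arrays (0.10) and with an intensity trend in the variance (0.050). Both genes therefore pointed one way in all 4 conditions, with differing certainty. Fosl1 met the detection minimum only through knockdown cells, so its calls between the viruses are no independent evidence.

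Jun was lower by a log2 difference of -0.58 under DMSO at 2 h (SE 0.14), -0.76 after 2 h of forskolin and -0.53 after 4 h, and at -0.26 under DMSO at 4 h it did not pass (adjusted p = 0.15). Without control array A the first became -0.37 (adjusted p = 0.068). The value after 4 h of forskolin became -0.37 without knockdown array B (adjusted p = 0.082) and -0.35 under median scaling (adjusted p = 0.097). Fosl2 was lower, by a difference of -0.64 under DMSO at 2 h (SE 0.12, adjusted p = 0.00074), of -0.49 at 4 h and of -1.14 after 2 h of forskolin. At 4 h of forskolin it stood at 0.10 (95% interval -0.16 to 0.36). The DMSO 4 h value was -0.35 without knockdown array A (adjusted p = 0.057).

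Junb and Egr1 changed sign between the forskolin times. Junb was lower in knockdown cells after 2 h of forskolin (-1.75, 3.35-fold, SE 0.12, adjusted p = 1.6e-07) and higher after 4 h (1.46, 2.76-fold, SE 0.12, adjusted p = 4.7e-07). Under DMSO it was higher by 0.82 at 2 h (SE 0.12) and at 4 h, with -0.09, it did not pass. Egr1 was lower by a difference of -0.95 after 2 h (SE 0.15, adjusted p = 0.00022) and higher by 1.42 after 4 h (SE 0.15, adjusted p = 5.5e-06), with -0.11 and -0.08 under DMSO. Atf3 was higher by 1.60 and 0.78 under DMSO (SE 0.13 each) and by 0.62 after 4 h of forskolin, and did not pass after 2 h (-0.17, 95% interval -0.46 to 0.11). Jund passed in 1 condition, forskolin 2 h, at -1.11 (SE 0.19, adjusted p = 0.00037).

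Markers of cell types moved with the virus beside these values. The summed signal of the hepatocyte list, given above, was lower on every knockdown array than on any control array. The 4 macrophage markers tested (Adgre1, Cd14, Lyz2 and Marco, above background on all 16 arrays, with Ptprc, Clec4f and Cd5l on 0) summed to 3470 to 8250 on control and 4111 to 10910 on knockdown arrays. The 7 endothelial markers summed to 1948 to 2401 and 2435 to 3500, with Kdr and Clec4g on 0 arrays. The 6 stellate and fibroblast markers summed to 42379 to 47201 and 37041 to 45638, with Des, Lrat and Pdgfrb on 0 arrays. The 4 cholangiocyte markers summed to 3923 to 7703 and 2797 to 9503, with Epcam on 0. Many of the members are expressed in all of these cell types, and the part of the cell mix in the knockdown values was not tested.

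Other genes of the pathway were followed through 4 lists. Their forskolin counts stand against the shares of all genes given above, 21.3% at 2 h and 32.0% at 4 h in control cells and 4.80% and 35.3% in knockdown cells. Of 14 further basic leucine zipper genes, partners of AP-1 proteins, 8 were measured. In control cells 2 rose and 1 fell after 2 h of forskolin (median -0.04), and at 4 h the 4 that passed were all lower (median -0.44). Cebpb, a liver factor of the acute-phase and cAMP responses, rose at 2 h by 1.15 in control cells (SE 0.11, adjusted p = 4.6e-06) and by 0.62 in knockdown cells. Maff, a small Maf protein, was higher by 0.36 at 2 h and lower at 4 h (-0.88, adjusted p = 9.9e-05). Jdp2, a repressor that pairs with Jun proteins, was lower at both times, by -0.61 and -1.44 in control cells, and at 4 h in knockdown cells (-0.87). In knockdown cells the list had 1 higher and 1 lower at 2 h and 1 higher and 3 lower at 4 h, with Ddit3, a stress-induced zipper protein, at -0.92 and -1.03.

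Of 18 upstream kinases and serum response factors, 9 were measured. In control cells 1 fell at 2 h, Creb1 (-0.59, adjusted p = 0.046), which was below background in both groups. At 4 h in control cells Map2k2 rose (0.56, adjusted p = 0.012) and Srf, the factor that drives Fos and Egr1 after serum, and Mapk8, a Jun kinase, fell (-0.87 and -0.57), 3 of 9 and so close to the share of all genes. In knockdown cells limma called 0 at 2 h, with 1 at an unadjusted p under 0.05, and at 4 h it called 1, Srf, which fell (-1.54, SE 0.12, adjusted p = 1.3e-06).

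Of 19 other immediate early genes, 12 were measured, and they moved both ways. In control cells 4 rose and 4 fell after 2 h of forskolin, and 3 rose and 6 fell at 4 h. Dusp1, a phosphatase of stress kinases that cAMP induces, rose by 1.54 and 1.68 in control cells and by 1.69 and 1.12 in knockdown cells (SE 0.11 each). Myc, the growth regulator, was at least 2.72-fold lower after 2 h in control cells and at least 2.22-fold lower in knockdown cells. Mcl1, a survival gene, and Zfp36l1, an RNA-decay factor, fell by log2 differences of -1.50 and -1.36 at 2 h in control cells. In knockdown cells 2 rose and 3 fell at 2 h, and 3 rose and 5 fell at 4 h, with Gadd45g, a growth arrest gene, at 1.85 (SE 0.13, adjusted p = 5.7e-07).

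Of 15 genes known from textbooks as AP-1 targets, 13 were measured, and most that passed after forskolin were lower. In control cells 1 rose and 6 fell at 2 h (median -0.33 against -0.01 over all genes), and 1 rose and 5 fell at 4 h (median -0.27). Vegfa, the vascular growth factor, was the 1 that rose at 2 h (0.84, SE 0.10, adjusted p = 6.6e-05). The chemokine Ccl2 fell by a difference of -3.48 at 2 h and -2.87 at 4 h (SE 0.13 each), the collagenase Mmp13 by -2.11 and -0.70, and the adhesion receptor Cd44 at least 2.09-fold at 2 h. In knockdown cells both genes that passed at 2 h were lower (Ccl2, -2.48, and the gelatinase Mmp9, -0.96), and 2 rose and 7 fell at 4 h.

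Between the viruses, most genes of the AP-1 target list that passed were higher in knockdown cells. In the order DMSO 2 h, DMSO 4 h, forskolin 2 h and forskolin 4 h, 8, 11, 8 and 12 of 13 were higher and 4, 1, 1 and 1 lower. Of all genes 50.04%, 52.7%, 50.1% and 59.1% passed, and 25.1%, 26.6%, 25.4% and 30.0% were higher. Under median scaling 7, 11, 8 and 12 of the list were higher, while the share of all calls that were higher went from 50.7% to 67.3% and from 50.9% to 65.8% after forskolin at 2 h and 4 h. The medians were 0.43, 1.08, 0.69 and 1.07, with -0.0049 to 0.0098 over all genes. These counts and medians include Mmp3, Mmp9, Il6 and Cd44, whose values involve groups below background. Mmp3 was above background in none of the control groups. It met the detection minimum only through knockdown cells, so its calls are no independent evidence. The part of the detection filter in the other counts was not tested. The genes named next were chosen after their values were seen. Mmp3, the matrix protease stromelysin, was at least 6.11-, 7.87-, 4.34- and 9.51-fold higher. Plau, urokinase, was higher by 1.10, 0.80, 0.93 and 0.81, and its receptor Plaur by 1.29, 0.84, 1.20 and 1.07. Ccnd1, cyclin D1, was lower in all 4 conditions, at -1.08, -1.19, -1.26 and -2.37. Ccl2 stood at -0.97 under DMSO at 2 h and at 2.07, 0.03 and 3.88 in the other 3 conditions, the second of which did not pass.

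**Figure D4:**
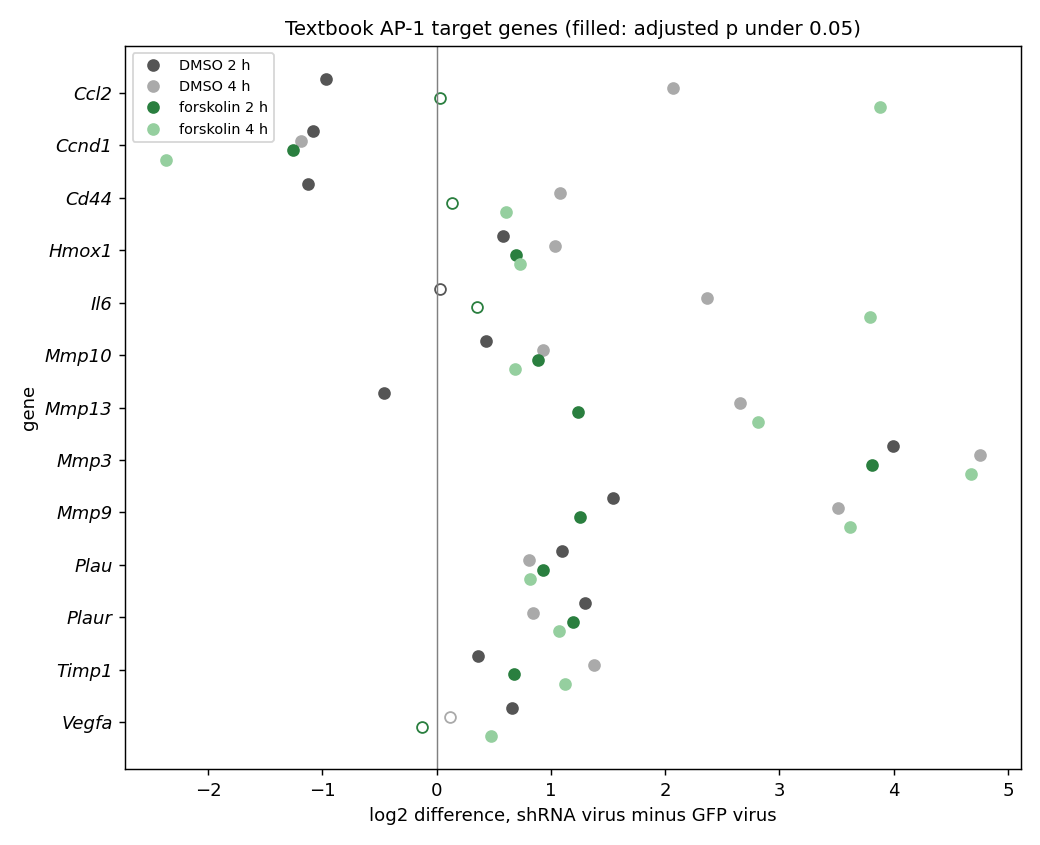
Log2 difference of shRNA from GFP virus (horizontal axis) for the 13 measured genes of the AP-1 target list (vertical axis) in the 4 conditions. Each point is a fitted difference over 2 arrays per group, filled where it passed the test. Mmp3 lies farthest to the right under DMSO, at 3.99 and 4.75, and Ccnd1 is to the left of 0 in all 4 conditions; fitted values of Mmp3, Mmp9, Il6 and Cd44 involve groups below background and are no measure of the fold.

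The patterns of the members over the 16 arrays, which fall into 8 groups and share arrays and normalization, differed among themselves. Fosb was most like Fosl2 and Jund (Pearson r = 0.89 for each), and Atf3 correlated with Fosl2 at 0.77. Fosb was above background only on the 2 control arrays after 2 h of forskolin. Its r values, that with Ier5l included, rest largely on those arrays. Jun ran against Fosl1, at -0.77, and Egr1 was nearest to Junb, at 0.60. Among genes outside the members, those most like Fosl2 were Phyhipl (0.96), Kctd15 (0.95) and Jade1 (0.95). For Fosl1 they were Cttnbp2nl (0.97), Chic2 (0.95) and Coprs (0.95), and for Fos they were Hilpda (0.94), Fbxo33 (0.92) and Man1b1 (0.89). Atf3 was closest to Apobec1 (0.94), Klf4 (0.93) and C2cd4a (0.91), and Junb to Spindoc (0.91), Ubtf (0.88) and Epha2 (0.86). The immediate early gene Ier5l stood nearest to Fosb (0.94) and among the 3 nearest to Jund (0.88), whose first was Dhcr7 (0.92). Jun was nearest to Golga5 (0.92), and Egr1 to Panx1 (0.88), the lowest best match of the 9. These r are descriptions over 16 arrays and carry no test.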

How the data were processed

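The files hold values for 16 arrays. The deposited intensities, a probe's brightness on a linear scale, come from GenomeStudio, according to the submitters' processing notes, and the p-value beside each is a detection p per the file headers. A second deposited table of linear intensities, normalized in a way the sources used here do not give, served as an alternative.

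Background correction by detection p, an offset of 16, quantile normalization and the log2 step were done with neqc (limma 3.58.1, R 4.3.3). Probes had to be detected (p under 0.01) on 2 arrays, and the brightest probe stood for a gene, which left 7746 genes. One model of 8 group means gave 16 contrasts; their tests were moderated and two-sided, on 8 residual plus 4.6 prior degrees of freedom, and adjusted by Benjamini-Hochberg within each contrast; it was tested on simulated data. Quantile normalization forces 1 distribution on all arrays, and background shrinks the differences of dim genes. "At least N-fold" sets the bright group's mean against the dim group's own signal or, where higher, the lowest detected signal of each array; it is used where a gene was detected on no array of 1 group. The precision is limited by 2 arrays per group.

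The members and lists were chosen with earlier results of these data known. Besides the members, the 3 genes most like each over 16 arrays and up to 4 genes with the smallest p per list and forskolin comparison were named. The lists were basic leucine zipper partners, upstream kinases and serum response factors, other immediate early genes, AP-1 targets, and markers of 5 cell types. Array letters are not tied to replicate numbers in the labels and were not taken as pairs. Alternatives covered background, scaling, the filter, the probe choice, the arrays in the fit, the variance prior, the array letter, the DMSO arrays of the other time and each array left out.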

Additional observations from a re-analysis of the deposited data

Results flagged for a closer look

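The forskolin response differed between groups, by the interaction test of the limma model over 7746 genes, in 20 of the member values. All values are log2 differences between responses, and those that involve Fosb, or Fos or Fosl1 in control cells, rest on groups below background, so they are no measure of a fold. Fosb met the detection minimum only through control cells after 2 h of forskolin. Its flagged values draw on that group and are no independent evidence.

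Between the times in control cells (response at 4 h minus response at 2 h), 8 of 9 members differed, where 26.6% of all genes did: Junb by -4.74, Fosl2 by -3.13, Fosb by -2.74, Atf3 by -2.66, Fos by -2.10, Fosl1 by -1.45, Egr1 by -1.28 and Jund by -0.85. The adjusted p ran from 4.5e-09 for Junb to 0.035 for Jund, whose call was lost under 9 of 25 alternatives. Junb also rose by 1.26 under DMSO over the same interval, which is part of its value.

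In knockdown cells 5 of 9 differed between the times, where 19.8% of all genes did: Fosl2 by -2.03, Atf3 by -1.04, Fosl1 by -0.76, Junb by -0.63 and Egr1, in the opposite direction, by 1.05. For Atf3, the DMSO arrays fell by a log2 value of -1.04 over that interval.

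Between the viruses (response in knockdown minus response in control cells), Junb differed by -2.56, Fosb by -1.79, Atf3 by -1.77 and Egr1 by -0.84 at 2 h, and Junb by 1.55, Egr1 by 1.49 and Fos by 1.13 at 4 h. The DMSO values of Junb in control cells and of Atf3 in knockdown cells changed between the times and enter their terms. The signs of Junb and Egr1 were opposite at the 2 times, and the 2 h call of Egr1 (adjusted p = 0.041) was lost under 15 of 25 alternatives. The hepatocyte markers differed between the viruses as well, and their part in these values was not tested.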

How the results depend on the processing

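Under 26 alternatives, 64 of 80 member values past the test stayed past it and 49 of 64 others never passed. Of 3636 values, 1 reversed: Atf3 after 4 h of forskolin in knockdown cells, -0.89 against the 2 h DMSO arrays. The array-letter replicate block changed no count of members by over 1.5 times; under it Junb fell from 2 h to 4 h of forskolin in knockdown cells (adjusted p = 0.048), 5 members differed between viruses at 2 h, with Jund added (adjusted p = 0.035), and 4 at 4 h, with Fosl2 added (0.039). Same-letter arrays deviated together in 25 of 28 pairs of groups at r over 0.1 (0.049 to 0.31). The count past the test went from 6 to 3 for forskolin 2 h in knockdown cells with the compared arrays alone, from 2 to 1 for DMSO over time in control cells without background correction or with the authors' normalized values (1 to 3 with an array left out), from 5 to 3 for forskolin over time in knockdown cells without background correction (3 to 5 with an array left out), and from 5 to 3 for forskolin by time in knockdown cells under median scaling (3 to 6). Jund by time in control cells lost its call under 9 of 25 alternatives, Fosl1 by time in knockdown cells under 7 and Junb under 5. Median scaling put the median of all genes at -0.26 for forskolin 2 h in control cells, and at 0.17 and 0.15 for knockdown after forskolin at 2 h and 4 h. It turned the share of calls that were higher from 50.7% to 67.3% and from 50.9% to 65.8% in those 2, from 51.6% to 35.3% for DMSO over time in control cells, from 50.6% to 63.9% for forskolin over time in knockdown cells, from 47.3% to 66.0% and 46.7% to 59.5% by time, and from 52.4% to 82.5% and 56.0% to 78.0% by virus. With 1 array of a group left out, the lone array is assumed to vary like the others. Fosb, Fosl1 and Fos in control cells lie near background, which limits their folds.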
